A study of Mus musculus with 2 samples.

Results

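The 7 genes described here are Ms4a4a, Ms4a4b, Ms4a4c, Ms4a6b, Ms4a6c, Ms4a6d and Ms4a7. With earlier results of these data known, they were chosen by name from 32285 genes measured and from 19 genes whose symbol starts with Ms4a. They were followed across the immune cells of subcutaneous tumors of MC38, a colon carcinoma line from the mouse, in 1 Control and 1 IR library. Control tumors were not irradiated, and IR tumors received a single local dose of 20 Gy and were collected 4 days later. Both groups were mice labelled WT, a name that the study's methods also give to Ythdf2 fl/fl mice without Cre, and the study's methods describe the mice used as young adults of both sexes. Each library held the live CD45+ cells sorted from 4 pooled tumors, so the spread between animals was not measured, no test was possible, and every interval given covers counting error only.

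After barcodes with at least 1000 UMIs (unique molecules counted) and at most 25% mitochondrial UMIs were kept, 4679 Control and 3411 IR barcodes remained, with medians of 7302 and 8266 UMIs. The 2 libraries shared 6 barcode sequences. The labels also name a CD45+CD11b+Ly6Chi cell type for both libraries, and the barcodes go against this. T cells made up 419 Control and 261 IR barcodes, and Itgam, which encodes CD11b, stood at 58.4 and 89.6 CPM in them against 473 and 496 CPM in monocytes. CPM, counts per 1e6, is a gene's summed UMIs over all UMIs of the barcodes named.

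The MS4A family encodes small multi-pass membrane proteins with both ends in the cytoplasm, many of which sit beside immune receptors and tune their signals. Its best known members are Ms4a1, the B cell antigen CD20, and Ms4a2, the beta chain of the high-affinity IgE receptor of mast cells and basophils. In the myeloid branch, Ms4a4a is known from alternatively activated macrophages, where its protein associates with the fungal glucan receptor Dectin-1, and Ms4a7 is a common marker of mature tissue macrophages. Ms4a4b and Ms4a6b are known from T cells, where their proteins associate with the costimulatory receptor GITR. Inflammatory monocytes, which carry Ly6c2, enter tumors from blood and can become macrophages that express the complement genes C1qa, C1qb and C1qc.

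The 7 genes lie in 1 cluster on chromosome 19, from 11321039 to 11604849 of GRCm38, a span of 283.811 kb that holds 1 other family gene, Ms4a4d. From the low end the order is Ms4a7, Ms4a4a, Ms4a4c, Ms4a4b, Ms4a6c, Ms4a6b and, after Ms4a4d, Ms4a6d. Neighbouring copies are alike in sequence, and since reads that fit more than 1 gene could not be traced in the counts, the division of UMIs between such copies is uncertain. RefSeq promoter windows (GRCm38.p6, 250 bases before to 50 after a start) were at hand for 6 of the 7 genes. Of the 21 pairs of windows, Ms4a4b with Ms4a4c and Ms4a6b with Ms4a6c were the most alike, with 75.3% and 64.0% of the 300 bases identical in a global alignment, against 47.0% to 55.0% in the other 19 pairs.

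The windows of Ms4a4b and Ms4a4c are shown because these neighbours share most of their promoter letters and yet were highest in different cells. Both had UMIs in T cells and NK cells too. That of Ms4a7 is shown because its level ran opposite to that of Ms4a4c between monocytes and macrophages. Each is written 5′ to 3′ on the gene's own strand, plus for Ms4a4b (chr19:11443308-11443607) and Ms4a4c (chr19:11407411-11407710) and minus for Ms4a7 (chr19:11334646-11334945, the more downstream of 2 windows). Capitals mark a match to TGANTCA, a pattern that includes the AP-1 site, in Ms4a4b and Ms4a7, and in Ms4a4c the 7 bases that align with the Ms4a4b match.
Ms4a4b: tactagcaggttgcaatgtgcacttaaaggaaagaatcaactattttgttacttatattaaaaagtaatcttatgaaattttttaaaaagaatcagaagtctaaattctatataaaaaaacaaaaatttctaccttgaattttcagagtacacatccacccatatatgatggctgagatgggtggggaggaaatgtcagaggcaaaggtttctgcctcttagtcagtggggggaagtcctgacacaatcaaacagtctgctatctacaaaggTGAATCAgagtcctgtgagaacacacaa
Ms4a4c: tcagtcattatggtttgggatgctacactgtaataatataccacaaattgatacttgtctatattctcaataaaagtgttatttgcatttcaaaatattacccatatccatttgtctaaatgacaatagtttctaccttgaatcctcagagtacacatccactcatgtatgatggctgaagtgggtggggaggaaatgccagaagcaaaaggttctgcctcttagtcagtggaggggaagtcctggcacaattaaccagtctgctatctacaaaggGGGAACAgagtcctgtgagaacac
Ms4a7: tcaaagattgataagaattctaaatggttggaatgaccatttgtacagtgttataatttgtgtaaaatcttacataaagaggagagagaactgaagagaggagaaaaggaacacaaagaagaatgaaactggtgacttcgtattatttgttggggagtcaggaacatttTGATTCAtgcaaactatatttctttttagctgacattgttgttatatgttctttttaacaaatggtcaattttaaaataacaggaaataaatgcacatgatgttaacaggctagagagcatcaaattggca
TGANTCA was found in 7.81% of 32851 promoter windows of this length, searched on both strands, and it reads as a match on each strand at the same place. The Ms4a4b match began at base 22 after the start and the Ms4a7 match at base -81. The other Ms4a7 window (chr19:11336097-11336396), which lies at the start of the annotated gene, had no TGANTCA match and is not shown. The Ms4a4c window lies inside its annotated gene, which starts at 11404770, while the Ms4a4b window spans the start of its gene at 11443553. Neither GAAANNGAAA, an interferon-response type motif (3.44% of windows), nor GAGGAAGT, a PU.1 type motif (3.20%), was found in any of the 7 windows. A match or its absence in a window is a description of these letters only.

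Barcodes were placed in lineages by marker genes that include none of the 7. Barcodes of the monocyte/macrophage class were split, at 1000 UMIs each, by whether UMIs of the monocyte genes Ly6c2, Plac8, Ccr2, Chil3 and Hp exceeded those of the 3 C1q genes. This gave 341 Control and 652 IR monocytes, 858 and 256 macrophages, and 126 and 125 barcodes with equal counts. C1qa stood at 210.1 and 178 CPM in monocytes and at 3242 and 2335 CPM in macrophages. Ly6c2 stood at 1175 and 1843 CPM in monocytes, and at 57.1 CPM in Control and 386 CPM in IR macrophages. Summed over the 5 monocyte genes, the macrophage gate held 675 CPM in Control and 1377 CPM in IR. Plac8 (126 and 552 CPM) and Hp (8.92 and 24.8 CPM) were also higher in IR macrophages. Ccr2 (360 and 306 CPM) and Chil3 (123 and 108 CPM) were lower there, so the larger sum did not hold for each gene. The part of this RNA in the results for macrophages was not tested. In both gates of both libraries the 3 NK cell markers summed to at most 12.5 CPM and the 5 T cell markers to between 57.6 and 137 CPM.

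A gate fixed on Xcr1, Clec9a, Wdfy4 and Naaa for conventional type 1 dendritic cells went against its name. Of its 382 Control and 141 IR barcodes, 53 and 13 had a UMI of Xcr1 or Clec9a, and the others passed mainly through Naaa, which was also counted in macrophages at 205 and 151 CPM. They are called Naaa-gated barcodes. With Naaa left out, an alternative chosen after seeing the data, the class grew to 470 and 720 monocytes and 1302 and 299 macrophages.

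Ms4a4c, a family member with few functions described, was the member that stood furthest apart between monocytes and macrophages in Control, and between the libraries within macrophages and within the whole class. In monocytes it stood at 418 CPM (95% interval 393 to 445) in the Control and 786 CPM (764 to 807) in the IR library. In macrophages it stood at 36.3 CPM (32.3 to 40.6) in the Control and 301 CPM (282 to 321) in the IR library. The Control macrophages were thus far below the Control monocytes, and the IR macrophages lay between the 2. Macrophages over monocytes, the log2 ratio of CPM plus 10 was -3.21 (-3.37 to -3.05) in Control and -1.35 (-1.45 to -1.26) in IR.

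IR over Control, the log2 ratio for Ms4a4c was 0.89 (0.80 to 0.99) in monocytes and 2.75 (2.59 to 2.91) in macrophages. In monocytes the choice of gate genes moved it between 0.44 with Ly6c2 against C1qa and 1.12 without Naaa. Barcodes with a UMI of Ms4a4c, at 1000 UMIs each, made up 32.0% (109 of 341 barcodes, 95% interval 27.0% to 37.2%) of Control and 45.4% (296 of 652 barcodes, 95% interval 41.5% to 49.3%) of IR monocytes. In macrophages they made up 3.85% (33 of 858 barcodes, 95% interval 2.66% to 5.36%) in Control and 22.3% (57 of 256 barcodes, 95% interval 17.3% to 27.9%) in IR. Without thinning the shares were 66.9% and 85.7% in monocytes and 17.0% and 55.9% in macrophages. In collagen-expressing cells, which should lack the gene, 0 of 68 Control and 1 of 54 IR barcodes had a UMI at 1000 UMIs. A count of 0 allows a share of up to 4.41%. Without thinning, 1 of 68 (1.47%) and 5 of 54 (9.26%) of these barcodes had a UMI. The median depths were 15602 and 24920.5 UMIs in those cells and 9098 and 10426 in macrophages.

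The higher level of Ms4a4c in the IR library was not seen in monocytes and macrophages alone. The log2 ratio was 1.95 (1.71 to 2.20) in T cells, 1.04 (0.80 to 1.28) in NK cells and 2.34 (1.90 to 2.78) in mature dendritic cells. In conventional type 2 dendritic cells, which held 38 and 43 barcodes, Ms4a4c stood at 507 CPM in Control and 591 CPM in the IR library, and the interval of the ratio, 0.22 (-0.08 to 0.52), included 0. Free RNA moved in the same direction. In droplets with 10 to 100 UMIs, taken as empty, Ms4a4c stood at 82.6 CPM in Control and 337 CPM in IR. After subtraction of free RNA at 5% of each population's UMIs the log2 ratio was 0.88 in monocytes and 2.82 in macrophages.

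In order of level, Ms4a4c in Control was highest in cDC2 and monocytes, whose intervals overlapped, then in nonclassical monocytes and Naaa-gated barcodes, and then in NK cells, T cells, macrophages, barcodes with equal gate counts and mature dendritic cells, neighbours whose intervals overlapped. In IR the order ran from monocytes to cDC2, nonclassical monocytes at 470.4 CPM, Naaa-gated barcodes at 467 CPM, macrophages, equal-count barcodes, T cells, mature dendritic cells and NK cells, with overlapping intervals between cDC2 and nonclassical monocytes, between nonclassical monocytes and Naaa-gated barcodes, and between macrophages and equal-count barcodes. Collagen-expressing cells were lowest of these in both libraries, at 0.890 and 3.61 CPM. B cells, plasmacytoid dendritic cells, neutrophils and mast cells or basophils were left out of these orders. Among them, 12 plasmacytoid dendritic cells of IR stood at 313 CPM (215 to 439.5) and 48 neutrophils of IR at 202 CPM (141 to 281).

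**Figure D1:**
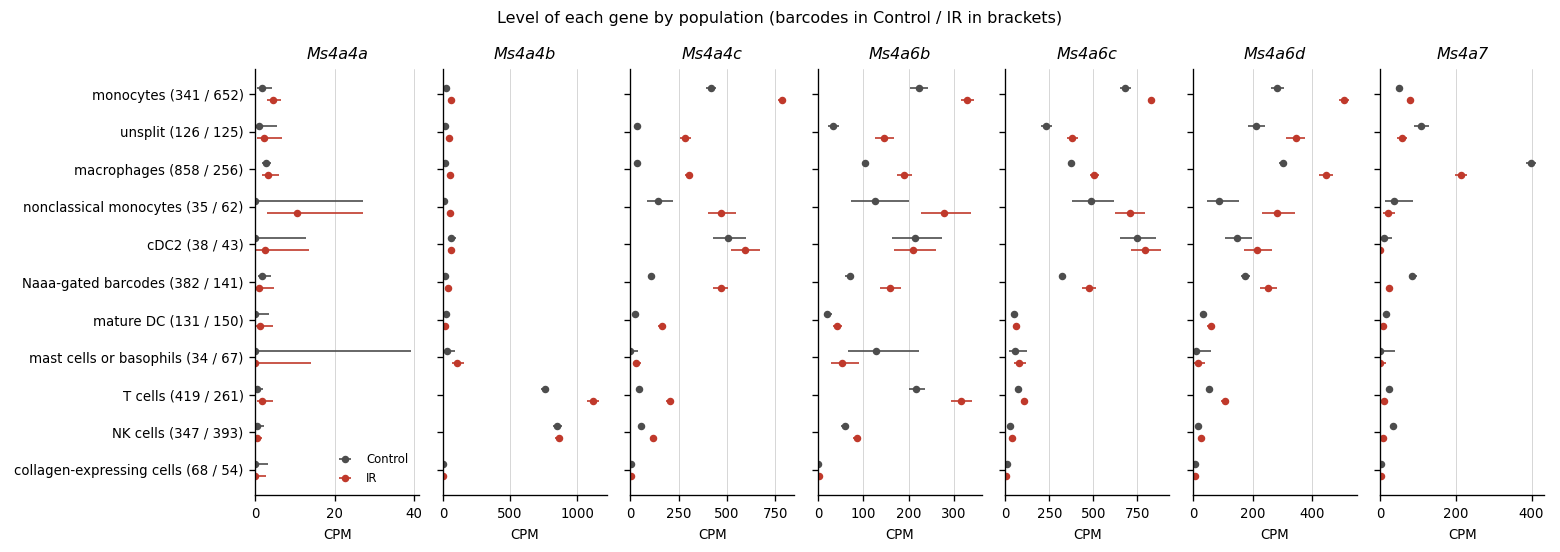
Level of each of the 7 genes, in CPM on a linear axis with its own scale for each gene, in 11 populations (rows, with the barcodes of each library) of the Control (grey) and IR (red) library. Points are sums over the barcodes and lines are exact 95% Poisson intervals. Ms4a4c reached 786 CPM in IR monocytes, Ms4a7 399 CPM in Control macrophages and Ms4a4b 1117 CPM in IR T cells.

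Ms4a7 had the opposite order between macrophages and monocytes, and between the libraries within macrophages. Control macrophages held 399 CPM (95% interval 386 to 413) and IR macrophages 213 CPM (197 to 229.9). Control monocytes held 48.5 CPM (40.0 to 58.1) and IR monocytes 79.1 CPM (72.4 to 86.1). Macrophages were above monocytes in both libraries, with a log2 ratio of 2.81 (2.58 to 3.04) in Control and 1.32 (1.17 to 1.48) in IR. IR over Control, the ratio in macrophages was -0.87 (-0.99 to -0.76), and it lay between -0.99 and -0.77 under every alternative run.

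In monocytes the IR over Control ratio of Ms4a7 was 0.61 (0.36 to 0.86), the other direction from macrophages, and this value depended on the gate. It was 1.15 with Ly6c2 against C1qa, 0.08 with Ccr2, Chil3 and Hp against the C1q genes, and 0.00 when barcodes were split at 2000 UMIs. The Control monocyte level was also close to that in NK cells, which should not express the gene and stood at 33.9 CPM (27.3 to 41.6). NK cells of the IR library stood at 7.25 CPM (4.89 to 10.4). T cells stood at 23.7 CPM in Control and 9.53 CPM in IR. Empty droplets of the 2 libraries held 185 and 63.6 CPM, and the part of free RNA in these levels was not tested. After subtraction of free RNA at 5% the monocyte ratio was 0.81.

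Barcodes with a UMI of Ms4a7, at 1000 UMIs each, made up 26.3% (226 of 858 barcodes, 95% interval 23.4% to 29.4%) of Control and 16.4% (42 of 256 barcodes, 95% interval 12.1% to 21.5%) of IR macrophages, and 4.69% and 6.44% of monocytes. Without thinning these shares were 62.0%, 50%, 15.5% and 23.6%. In NK cells the shares at 1000 UMIs were 2.02% and 0.763%, at median depths of 6593 and 7316 UMIs. In order of level, with the same 4 populations left out, Control macrophages were followed by equal-count barcodes at 107 CPM and Naaa-gated barcodes at 84.5 CPM, whose intervals overlapped, and then by monocytes. In IR, macrophages were followed by monocytes and then by equal-count barcodes at 56.3 CPM. Of those left out, 23 B cells of Control stood at 131 CPM (85.4 to 192) and 12 plasmacytoid dendritic cells of IR at 85.4 CPM (39.0 to 162). cDC2 held 3 Ms4a7 UMIs in Control and 0 in IR, a count that allows up to 7.33 CPM.

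Finer gates within the macrophages, which may overlap, were further apart in Ms4a7 than in Ms4a4c in the Control library. Ms4a7 was highest in the resident-like gate of Lyve1, Folr2, Cd163 and Timd4, at 716 CPM (674 to 759) in 156 Control barcodes and 541 CPM (464 to 627) in 22 IR barcodes. It stood at 409 and 129 CPM in cycling macrophages (164 and 24 barcodes). In those with Spp1 or Arg1 UMIs it stood at 409 and 214 CPM. That gate held 769 of 858 Control and 244 of 256 IR macrophages, so it is close to the whole macrophage gate. The Dcstamp, Ccl17 and Tnip3 gate was lowest, at 232 CPM (215 to 251) in the Control and 74.5 CPM (58.9 to 92.9) in the IR library. The IR over Control ratio of Ms4a7 was below 0 in each of these 4 gates, from -1.59 in cycling to -0.40 in resident-like macrophages. Ms4a4c lay between 28.5 and 37.0 CPM in the 4 Control gates and between 108 and 303 CPM in the 4 IR gates.

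Set side by side in single barcodes thinned to 1000 UMIs, Ms4a4c and Ms4a7 were seldom both counted. In the whole class of Control, 10.1% of 1325 barcodes had a UMI of Ms4a4c without Ms4a7, 18.3% had Ms4a7 without Ms4a4c and 0.906% had both. In IR these were 33.1%, 5.23% and 3.48% of 1033 barcodes. The number with both was 12 in Control and 36 in IR, where the product of the shares with each gene gives 28.1 and 32.9, so both genes met less often than this product in Control and about as often in IR. The share with Ms4a4c alone was the larger in IR and that with Ms4a7 alone the larger in Control. Among macrophages, barcodes with both genes numbered 7 of 858 in Control, 0.816% (95% exact binomial interval 0.329% to 1.67%), and 14 of 256 in IR, 5.47% (3.02% to 9.01%). The product gives 8.69 and 9.35 such macrophages. At this depth 70.6% of Control and 58.2% of IR class barcodes had a UMI of neither gene, so a missing UMI does not show that a cell lacked the RNA.

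**Figure D2:**
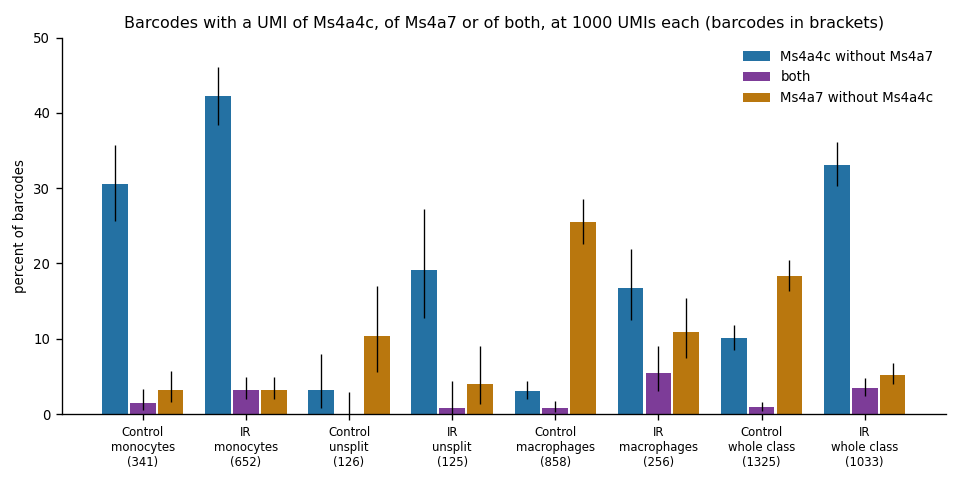
Percent of barcodes, thinned to 1000 UMIs each, with a UMI of Ms4a4c without Ms4a7 (blue), of both (purple) or of Ms4a7 without Ms4a4c (orange), in each gate and library, with exact 95% binomial intervals. Ms4a4c alone accounted for 3.03% of Control and 16.8% of IR macrophages, and Ms4a7 alone for 25.5% and 10.9%.

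A graded form of the split ordered 1140 Control and 875 IR class barcodes, those with at least 10 such UMIs, by the C1q share of their C1q plus monocyte-gene UMIs, in 5 bins of 0.2. Ms4a4c in Control stood at 542 CPM in the lowest bin and at 150.1, 129.8, 91.2 and 26.0 CPM in the next 4. In IR it stood at 831, 569, 625, 428 and 198 CPM. The IR value was the higher in every bin, with a log2 ratio of 0.61 (0.51 to 0.71) in the lowest and 2.53 (2.33 to 2.72) in the highest. Within the highest bin C1qa stood at 3429 and 2628 CPM and Ly6c2 at 29.7 and 149.9 CPM, so the bins were not equal between the libraries in the genes that define them.

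Ms4a7 was lowest in the lowest bin and highest in the highest bin of both libraries, 34.4 and 425 CPM in Control and 58.6 and 248 CPM in IR. In the 3 middle bins the libraries were close, at 131, 123 and 142 CPM in Control and 114, 125 and 178 CPM in IR, and the intervals of the ratios included 0. In the highest bin the ratio was -0.76 (-0.89 to -0.63) and in the lowest 0.63 (0.30 to 0.96). The 2 lowest middle bins held 24 and 46 Control barcodes, which limits their precision.

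**Figure D3:**
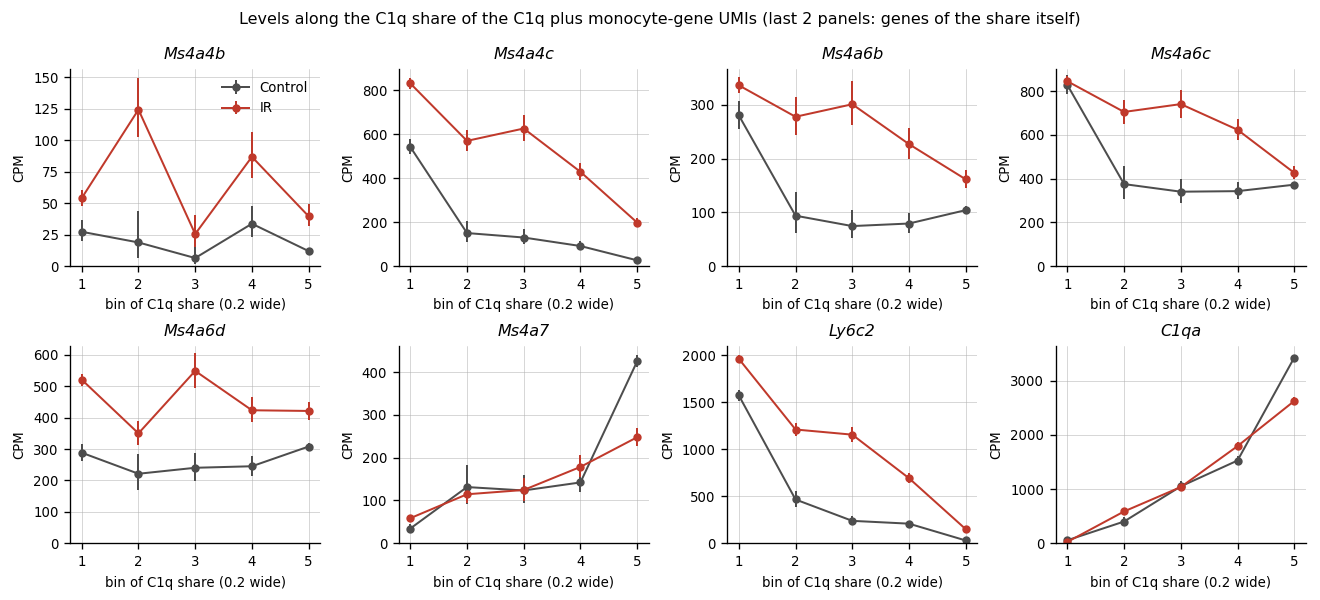
Level in CPM (linear axes from 0) of 6 of the genes, and of Ly6c2 and C1qa, along 5 bins of the C1q share, in Control (grey) and IR (red), with exact 95% Poisson intervals. Ms4a4c stood at 542 and 831 CPM in the lowest bin and Ms4a7 at 425 and 248 CPM in the highest, and Ms4a6d lay above Control in every IR bin.

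Ms4a6b, Ms4a6c and Ms4a6d, neighbours at the high end of the cluster, were counted in monocytes and macrophages alike. Ms4a6b stood at 222 CPM (204 to 242) in Control monocytes and 329.7 CPM (316 to 344) in those of IR, and at 103 CPM (96.5 to 110.3) and 190.5 CPM (175 to 206) in macrophages. Ms4a6c stood at 683 CPM (650.2 to 717) and 832 CPM (809.8 to 854) in monocytes, and at 372 CPM (359 to 386) and 506 CPM (481 to 531) in macrophages. Both were lower in macrophages than in monocytes within each library, with log2 ratios of -1.04 (-1.18 to -0.89) and -0.76 (-0.89 to -0.63) for Ms4a6b in Control and IR, and of -0.86 (-0.94 to -0.77) and -0.71 (-0.79 to -0.63) for Ms4a6c.

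Ms4a6d, whose protein is known from macrophages, was close to equal in the 2 gates. It stood at 282 CPM (261 to 304) in Control monocytes and 504 CPM (487 to 522) in those of IR, and at 300.2 CPM (289 to 312) and 444 CPM (421 to 468) in macrophages. The ratio of macrophages over monocytes was 0.09 (-0.03 to 0.21) in Control, an interval that included 0, and -0.18 (-0.27 to -0.09) in IR. All 3 genes were higher in the IR library in both gates. IR over Control, Ms4a6b had a log2 ratio of 0.55 (0.42 to 0.68) in monocytes and 0.82 (0.68 to 0.97) in macrophages, and Ms4a6d of 0.82 (0.70 to 0.94) and 0.55 (0.46 to 0.64). The ratio of Ms4a6c in monocytes, 0.28 (0.20 to 0.36), became -0.06 with Ly6c2 against C1qa as the split, so its direction there rested on the gate. In macrophages it was 0.43 (0.35 to 0.52).

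Outside the class these 3 genes parted. Ms4a6b stood at 217 CPM (199.9 to 235) in Control T cells and 316 CPM (294 to 339.8) in those of IR, levels whose intervals overlapped those in monocytes of the same library. Ms4a6c and Ms4a6d stood at 70.1 and 52.6 CPM in Control T cells and at 104 and 107 CPM in IR T cells, well below their levels in the class. In NK cells the 3 genes ranged from 17.1 CPM for Ms4a6d in Control to 86.3 CPM for Ms4a6b in IR. cDC2 held Ms4a6c at 751 and 796 CPM, overlapping monocytes in both libraries, and mature dendritic cells held it at 48.5 and 58.7 CPM. Empty droplets held Ms4a6b at 106 and 189.6 CPM, Ms4a6c at 298 and 358 CPM, and Ms4a6d at 162 and 271 CPM.

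Ms4a4b was a gene of T and NK cells. It stood at 759 CPM (727 to 793) in Control T cells and 1117 CPM (1074 to 1161) in those of IR, and at 853 CPM (818 to 888) and 861 CPM (833 to 890.2) in NK cells. The IR over Control ratio was 0.55 (0.47 to 0.63) in T cells and 0.01 (-0.06 to 0.09) in NK cells, the latter with an interval that included 0. Among T cells, CD8 barcodes (214 and 132) stood at 890.0 CPM in Control and 1251 CPM in IR. Foxp3 barcodes (51 and 18), the regulatory T cells, stood at 275 and 706 CPM, the lowest of the T cell gates in Control, while in IR their interval overlapped that of CD4 barcodes. CD4 barcodes without Foxp3 (43 and 29) stood at 962 and 772 CPM, and were the T cell gate in which the IR value was the lower, with a log2 ratio of -0.31 (-0.61 to -0.02).

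In the monocyte/macrophage class Ms4a4b was low in both libraries and higher in IR. Control monocytes stood at 22.1 and IR monocytes at 60.6 CPM, and macrophages at 12.96 and 54.1 CPM, log2 ratios of 1.14 (0.83 to 1.44) and 1.48 (1.23 to 1.72). T cell RNA moved with it. Cd3e stood at 7.52 and 13.9 CPM in monocytes and at 12.2 and 24.5 CPM in macrophages, the 5 T cell markers summed to 77.5 and 137 CPM in macrophages, and empty droplets held Ms4a4b at 135 and 287 CPM. Their part in the class value was not tested. After subtraction of free RNA at 5% the ratio was 1.16 in monocytes and 1.65 in macrophages.

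Ms4a4a was at the limit of this depth. It had 4 UMIs in Control and 30 in IR monocytes, or 1.67 CPM (0.455 to 4.28) and 4.53 CPM (3.05 to 6.46), and 22 and 10 UMIs in macrophages, or 2.62 CPM (1.64 to 3.96) and 3.22 CPM (1.54 to 5.92). The interval of the IR over Control ratio included 0 in both gates. Resident-like macrophages held 12 of the 22 Control macrophage UMIs, 7.94 CPM (4.10 to 13.9), and 0 UMIs in the 22 barcodes of IR, a count that allows up to 9.12 CPM. Over all kept barcodes it had 71 UMIs in Control and 96 in IR, the fewest of the 7 genes in each library.

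Read together against all genes with at least 50 CPM in 1 of the populations compared, few of the 7 genes passed a 2-fold limit on the scale of CPM plus 10. The 7 were chosen with earlier results of these data known, so they are not an unselected set beside all genes. IR over Control in monocytes, 1 of 6 genes measured at that level was at least 2-fold higher (Ms4a4b), against 2.49% of 2937 genes, and 0 were 2-fold lower, against 0.306%. In macrophages 2 of 6 were higher (Ms4a4b and Ms4a4c), against 3.14% of 2896 genes, and 0 were lower, against 1.1%. Macrophages over monocytes, 1 of 5 was higher in Control (Ms4a7) and 2 were lower (Ms4a4c and Ms4a6b), against 2.8% and 3.43% of 3031 genes. In IR 1 of 6 was higher (Ms4a7) and 1 lower (Ms4a4c), against 1.68% and 2.03% of 2912 genes. IR over Control, the median log2 ratio of all 7 genes was 0.61 in monocytes and 0.55 in macrophages, and that of the 6 measured at 50 CPM was 0.71 and 0.69, beside -0.02 and -0.01 over all genes at that level. Macrophages over monocytes, it was -0.49 in Control and -0.18 in IR over all 7, and -0.86 over the 5 and -0.44 over the 6 measured, beside -0.07 over all genes at that level in each library.

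**Figure D4:**
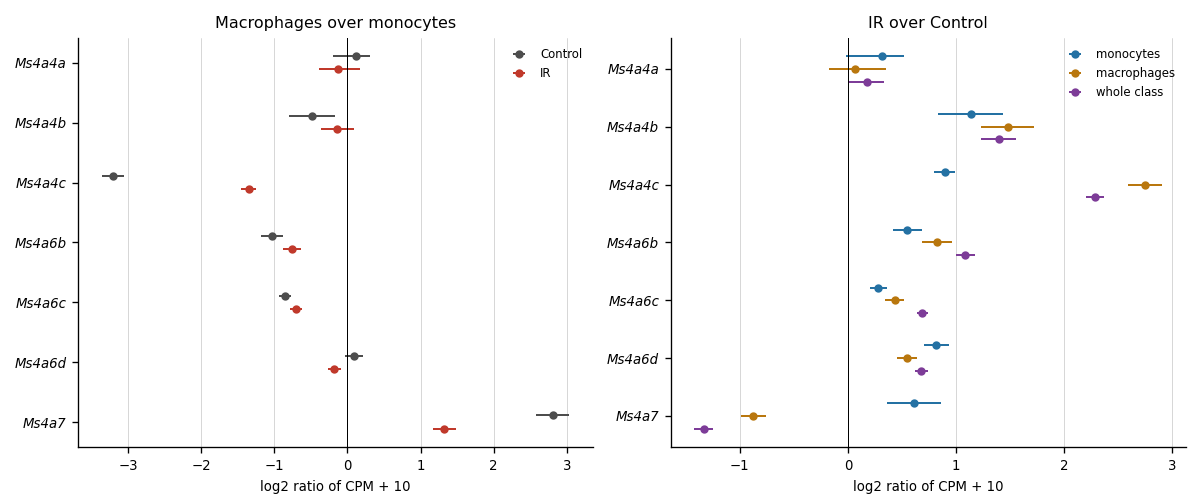
Log2 ratio of CPM plus 10 for each of the 7 genes, macrophages over monocytes in Control (grey) and IR (red) on the left, and IR over Control in monocytes (blue), macrophages (orange) and the whole class (purple) on the right, with exact conditional 95% intervals. Ms4a4c and Ms4a7 lie on opposite sides of 0 on the left, at -3.21 and 2.81 in Control and at -1.35 and 1.32 in IR.

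The make-up of the class differed between the libraries, so the class levels were also computed at fixed shares. Monocytes gave 20.2% of the class UMIs in Control and 60.0% in IR, macrophages 71.1% and 28.1%, and equal-count barcodes 8.70% and 11.9%. In the whole class Ms4a4c stood at 113 CPM in Control and 589.8 CPM in IR, a log2 ratio of 2.28 (2.20 to 2.36). With the IR levels of the gates weighted by the Control shares it was 1.73, and with the Control levels weighted by the IR shares 1.16. Ms4a7 stood at 303 and 114 CPM, a ratio of -1.33 (-1.42 to -1.25), which was -0.78 at the Control shares and -0.93 from the shares alone. For Ms4a6d the shares alone gave -0.05 of a class ratio of 0.68, and for Ms4a6b and Ms4a6c they gave 0.43 of 1.09 and 0.35 of 0.69. The parts need not add up to the class ratio on a log scale.

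Interferon-induced genes were higher in the same gates. The 10 listed were chosen with earlier results of these data known. Of these, 9 of 9 measured at 50 CPM were at least 2-fold higher in IR monocytes, against 2.49% of 2937 genes. In IR macrophages 8 of 8 were, against 3.14% of 2896 genes. Their median log2 ratios in monocytes and macrophages were 2.23 and 2.72 over those measured and 2.03 and 2.31 over all 10. Isg15, a ubiquitin-like interferon product, stood at 183 CPM in Control and 1018 CPM in IR monocytes and at 57.0 and 515 CPM in macrophages. Ifit3, an RNA-binding interferon product, stood at 9.61 and 159.9 CPM in monocytes and at 7.73 and 115 CPM in macrophages. The part of this programme in the Ms4a4c levels was not tested.

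Of 7 genes for receptors and signalling partners listed beside the family, 6 were found by symbol and 0 passed the 2-fold limit between IR and Control in either gate, with log2 ratios from -0.03 to 0.96 in monocytes and from -0.21 to 0.85 in macrophages. Fcgr4, an activating IgG receptor, was the highest of them in both, at 74.8 CPM in Control and 155 CPM in IR monocytes and 122 and 228 CPM in macrophages. Trem2, a lipid receptor whose level MS4A proteins are known to affect, stood at 173 and 169 CPM in monocytes and 480.0 and 413 CPM in macrophages. It was the 1 listed gene at least 2-fold higher in macrophages than in monocytes, in both libraries. Tyrobp, Fcer1g, Syk and Grn, which encode signalling adaptors, a kinase and progranulin, had IR over Control ratios from 0.00 to 0.39 in macrophages. Clec7a, which encodes Dectin-1, had no matching symbol.

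The other 12 genes of the family were mostly at few or no counts. Ms4a1 was counted in B cells, at 528 CPM in 23 Control and 697 CPM in 8 IR barcodes, and Ms4a2 in mast cells or basophils, at 352 and 267 CPM, the cells they are known from. Ms4a4d, which lies between Ms4a6b and Ms4a6d, was counted in collagen-expressing cells, with 16.9 and 63.5 CPM, and had 1 and 9 UMIs in the monocyte/macrophage class. Ms4a8a stood at 45.9 and 45.6 CPM in monocytes and 22.8 and 36.7 CPM in macrophages. Ms4a14, next to Ms4a7, had 54 UMIs in Control and 4 in IR macrophages, 6.42 and 1.29 CPM. The other 7 had at most 2 UMIs each in either library. The related Tmem176a and Tmem176b, which are on chromosome 6, stood at 44.4 and 75.0 CPM in Control and 9.65 and 12.9 CPM in IR macrophages.

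Genes with the most similar pattern were sought over 14 points, 7 lineages in each of 2 libraries, among 5227 genes with at least 50 CPM in a population, by Pearson's r of log2 CPM plus 10. The points share 2 libraries and the lineages differ strongly, so high values are common and r is given as a description. Ms4a4c was nearest to Plac8 (0.94), which helps to define the monocyte gate, and to the interferon-inducible Trim30a (0.93) and Slfn2 (0.93). Ms4a7 was nearest to Apoe (0.96), which encodes an apolipoprotein, Prxl2b (0.96) and Pf4 (0.96), a chemokine gene. Ms4a4b was nearest to Sh2d2a, Nkg7 and Lck, genes of T and NK cells (0.98 to 0.99). Ms4a6d was nearest to the chemokine receptor gene Ccr1, Slc7a8 and Msr1, and Ms4a6c to Cyp4f18, Ccr1 and Ms4a6d, the 1 case of a gene nearest to another of the 7 (0.98). Ms4a6b was nearest to Ccl3, Diaph1 and Cd53 (0.95 to 0.97). For Ms4a4a, which reached at most 4.53 CPM in these lineages, no likeness is read.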

How the data were processed

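Per the labels and the study's methods, the authors made both libraries with the 10x Genomics 3′ v3.1 chemistry, and their processing notes name Cell Ranger 6.0.1 and mm10, whereas the header of the deposited matrices names Cell Ranger 4. The deposited values are unfiltered UMI counts per gene and barcode (48593879 Control and 42406461 IR in all). The study's own cell annotation was not used here, so the gates are rebuilt.

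Barcodes with at least 1000 UMIs and at most 25% mitochondrial UMIs were kept (the latter limit removed 296 Control and 96 IR barcodes). Marker UMIs per 10000 were divided by their 99.9th percentile, and a barcode joined the lineage with the highest score if that was at least 0.1 and the next at most 0.5 of it. This left 1247 Control and 664 IR barcodes mixed and 605 and 475 without a lineage. No doublet caller was used in the values reported. Scrublet (scanpy 1.11.5) marked 0 Control and 1 IR barcode at its own threshold, taken as not having worked, and the 6% with the highest scores were left out as an alternative. UMIs were summed per library and gate and given as CPM with exact Poisson intervals. Shares have exact Clopper-Pearson intervals. Ratios are log2 of CPM plus 10 with the exact conditional interval, understate changes of low genes, and were called 2-fold among genes with at least 50 CPM in 1 population compared. A count of 0 was given a limit of 3 counts. Intervals have a confidence of 95%.

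The genes named are the 7 by rule, the other Ms4a genes with Tmem176a and Tmem176b, 7 partner genes, 10 interferon genes and the 3 genes most like each of the 7. The 7 genes, lists and gates were chosen with earlier results of these data known. Alternatives concerned the UMI and mitochondrial limits, doublets, mixed barcodes, the split, the CPM total, TMM scaling (edgeR 4.0.16, R 4.3.3), the pseudocount, free RNA and, added after seeing the data, Naaa. The 2-fold rule and its intervals were run on simulated counts with counting error only. That run cannot speak to the spread between animals, free RNA or errors of the gates. Positions are those of GENCODE vM21 on GRCm38, the authors' build (mm10). Promoters were aligned with Biopython 1.88.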

Additional observations from a re-analysis of the deposited data

Results flagged for a closer look

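Empty droplets of the IR library, those with 10 to 100 UMIs, which were left out of every population of cells, held 5 of the 7 genes at higher levels than those of Control beyond counting error. They held Ms4a4b at 287 CPM, Ms4a4c at 337 CPM, Ms4a6b at 189.6 CPM, Ms4a6c at 358 CPM and Ms4a6d at 271 CPM, and the Control values were 135, 82.6, 106.0, 298 and 162 CPM. Ms4a7 went the other way, with 185 CPM in Control droplets and 63.6 CPM in those of IR, and Ms4a4a stood at 1.16 and 2.26 CPM, with overlapping intervals. How many of all genes differed in this way was not counted, so the 5 of 7 is not read as particular to this family. The part of free RNA in the levels by population was not tested.

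Ms4a7 was higher in IR than in Control among monocytes and lower among macrophages, and the 2 log2 ratios differed by 1.48. With 1 library per group this difference was not tested, and the monocyte ratio was near 0 under 2 of the alternative splits.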

How the results depend on the processing

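No paired analysis was possible because each group had a single library. Of the IR over Control ratios recomputed under the alternatives, 234 stayed within the counting interval of the value reported. Another 38 left it in the same direction, and 1 left it with a change of direction. Of the macrophage over monocyte ratios, 155 stayed within it and 27 left it. The 1 IR over Control ratio that left its interval with a change of direction was that of Ms4a6c in monocytes, at -0.056 with Ly6c2 against C1qa. The range under the alternatives also crossed 0 for Ms4a4a, IR over Control in macrophages (-0.0294 to 0.2221). Macrophages over monocytes, it crossed 0 for Ms4a4b in IR (-0.3882 to 0.3595) and for Ms4a4a in Control (-0.0101 to 0.4372).

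For Ms4a4c, IR over Control in monocytes was 1.02 with mixed barcodes kept, 0.44 with Ly6c2 against C1qa and 1.12 without Naaa. In macrophages these 3 settings gave 2.44, 2.98 and 2.36, while Ccr2, Chil3 and Hp against the C1q genes gave 3.02 and a pseudocount of 1 also gave 3.02, with 2.37 in the whole class. Macrophages over monocytes, Control gave -2.70 with mixed barcodes kept, -3.89 with Ly6c2 against C1qa, -3.03 with Ccr2, Chil3 and Hp, -3.49 with a pseudocount of 1 and -2.65 without Naaa, and IR gave -0.91 with Ccr2, Chil3 and Hp.

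For Ms4a7, IR over Control in monocytes was 0.27 with the split on unthinned UMIs, 0.0041 with the split at 2000 UMIs, 1.15 with Ly6c2 against C1qa and 0.075 with Ccr2, Chil3 and Hp. In the whole class it was -1.45 without the 6% highest Scrublet scores, -1.43 without mitochondrial and ribosomal protein genes and -1.20 without Naaa. Macrophages over monocytes, Control gave 2.48 with mixed barcodes kept, 2.52 with unthinned UMIs, 2.28 at 2000 UMIs and 3.16 with Ly6c2 against C1qa, and IR gave 1.50 at 2000 UMIs, 1.10 with Ly6c2 against C1qa and 1.70 with Ccr2, Chil3 and Hp. The cause of these shifts was not tested. The spread between animals is unknown here, so the intervals understate the error.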
